A study of Mus musculus with 10 samples.

Results

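The genes described here are 36 genes of glycolysis and of the response to low oxygen, chosen by gene symbol from a list of names; the rule sets no limit on a measured value, but the list was drawn up with earlier results of these data known. All 36 were found among the 36586 named genes of the expression tables. They comprise 22 genes of glycolysis and lactate handling and 14 of the hypoxia response, and are taken below in 5 roles: the HIF subunit and oxygen sensors (3 genes), other targets of HIF (11), glucose transporters (2), glycolytic enzymes (15), and pyruvate and lactate handling with flux control (5).

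The 10 libraries came from mouse embryonic stem cells (ESCs), pluripotent cells grown from the early embryo. Expression was measured in 4 libraries of poly-A RNA, all from the JM8.N4 line: wild type, Rad23b-/-, and Rad23b-/- cells in which Xpc was knocked down by either of 2 independent short hairpin RNAs (KD1 and KD2). Chromatin immunoprecipitation with guinea pig antibodies to RAD23B, or with normal IgG, was done in wild-type D3 ESCs (2 libraries of each) and in Xpc-/- ESCs (1 of each). The comparisons ask what happened to these genes in the absence of RAD23B, a partner of the damage-recognition protein XPC that the study treats as a transcriptional coactivator, and whether RAD23B lay on chromatin near them. The labels name no clone, passage, oxygen level or growth condition for any group, the knockdowns were made in cells that also lack Rad23b, and there was no Xpc knockdown in wild-type cells. The occupancy data came from another line (D3) than the expression data (JM8.N4).

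Glycolysis splits glucose into pyruvate, and lactate dehydrogenase turns pyruvate into lactate when it is not burned in mitochondria; pluripotent cells are known for a high rate of glycolysis. HIF-1 is a heterodimer whose alpha subunit is marked for destruction by prolyl hydroxylases when oxygen is present, so that its control is largely at the level of protein rather than RNA. When oxygen is low, the stable dimer binds hypoxia response elements with the core ACGTG or GCGTG and raises genes for glucose uptake, glycolysis, blood vessel growth, matrix modification and mitochondrial turnover.

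Levels are in RPKM, reads scaled to transcript length and library size, as deposited. Changes are given as log2 ratios of mutant to wild-type RPKM within a table, after 1 was added to both. It was counted when it reached 1.5-fold in a gene whose RPKM was 1 or more in at least one of the libraries compared. Each group has 1 library, so differences in expression were not tested and no error can be attached to a level. All 3 mutant libraries were set against the same wild-type library, so their ratios are not independent. As a gauge of scatter, the middle 68% of genes differed by no more than 0.22 on the log2 scale between the 2 knockdowns. The standard deviation over the same genes was 0.66. Neither value measures the spread between a mutant and the single wild-type library. The read totals are unknown; the steps between low values put the depth of the mutant libraries at 1.23 to 1.30 times that of wild type.

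The targeted genes were low where the labels say so. Rad23b stood at 16.1 to 23.3% of wild type in the 3 mutants, Xpc at 95.5% in the Rad23b-null library and at 10.8 and 10.4% in the knockdowns. All 10 stem cell markers of a fixed list were present, and 3 of them (Nanog, Klf4, Esrrb) were at least 1.5-fold lower in each mutant. Tdgf1 was above wild type in each (log2 0.08, 0.59 and 0.29) and past 1.5-fold in KD1, where Dppa5a was above wild type too (0.21). The 10 markers summed to 0.72, 1.04 and 0.86 times wild type in Rad23b-null, KD1 and KD2 cells. Markers of fibroblast feeder cells summed to 2.48 to 3.58 RPKM over 10 genes, with Postn at 0 in every library. Markers of primitive endoderm summed to 12.6 to 14.3 RPKM over 8 genes, with Gata4 and Sox7 at least 1.5-fold higher in each mutant and Lama1 below wild type in each (log2 -0.36, -0.41 and -0.13). Those of neural and mesodermal cells summed to 20.8 to 22.8 RPKM over 7 genes. Of these, Hand1 was at least 1.5-fold higher in each mutant, Pax6 was so in KD2, and Eomes was below wild type in each (log2 -0.55, -0.17 and -0.61). Hand1 was at 0.329 RPKM in wild type and 3.31, 3.48 and 1.70 RPKM in the mutants, so it passed the RPKM limit only through the mutants. The part of these shifts in the results below was not tested, and in bulk RNA fewer cells of a type and less RNA per cell cannot be told apart.

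In Rad23b-null cells the HIF targets outside glycolysis were mostly higher, while the glycolytic enzymes stayed near wild type. Of the 36 genes, 9 were at least 1.5-fold higher, beside 10.8% of all 15040 genes past the same filter, and 4 were lower, beside 16.4% of all genes. Of the 9 higher genes 8 were among the 11 other HIF targets, and the ninth was the enolase gene Eno2. Car9, one of the 8, passed the filter only through its level in Rad23b-null cells, and with an RPKM limit of 5, which drops Car9 and Eno2, the count was 7. The 4 lower genes were Hif1a, Hk1, Aldoc and Ldhb. The median over the 36 genes was 0.16 on the log2 scale, beside -0.16 over all genes.

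With Xpc knocked down as well, the HIF targets again made up most of the higher genes. In KD1 8 of the 35 genes past the filter were at least 1.5-fold higher (9.1% of all genes) and 3 were lower (12.4% of all genes), and in KD2 10 of 35 were higher (9.61%) and 3 lower (13.7%). The other HIF targets made up 6 of the 8 higher genes in KD1 and 8 of the 10 in KD2. The 3 lower genes were Aldoc, Ldhb and Hif1a in either knockdown. The gene not counted in the knockdowns was Car9, whose RPKM was under 1 there and in wild type.

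Setting the all-gene median to 0 raised the counts of higher members. They became 11 in Rad23b-null cells (15.5% of all genes), 12 in KD1 (12.7%) and 13 in KD2 (13.5%), with 3 lower (9.61%), 3 lower (7.73%) and 2 lower (8.19%). At 2-fold, 2 members were higher in Rad23b-null cells (Adm and Ddit4; 4.74% of all genes) and 2 lower (Aldoc and Ldhb; 4.61%). In KD1 3 were higher at 2-fold (3.95%) and 1 lower (3.4%), and in KD2 4 were higher (3.93%) and 1 lower (3.6%). In the authors' deposited table, p-values under 0.05 stand beside 3 of the 36 genes in Rad23b-null cells (2.77% of all genes past the filter), 3 in KD1 (2.76%) and 4 in KD2 (2.74%): Adm, Ddit4 and Ldhb in each, with P4ha1 in KD2.

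**Figure D1:**
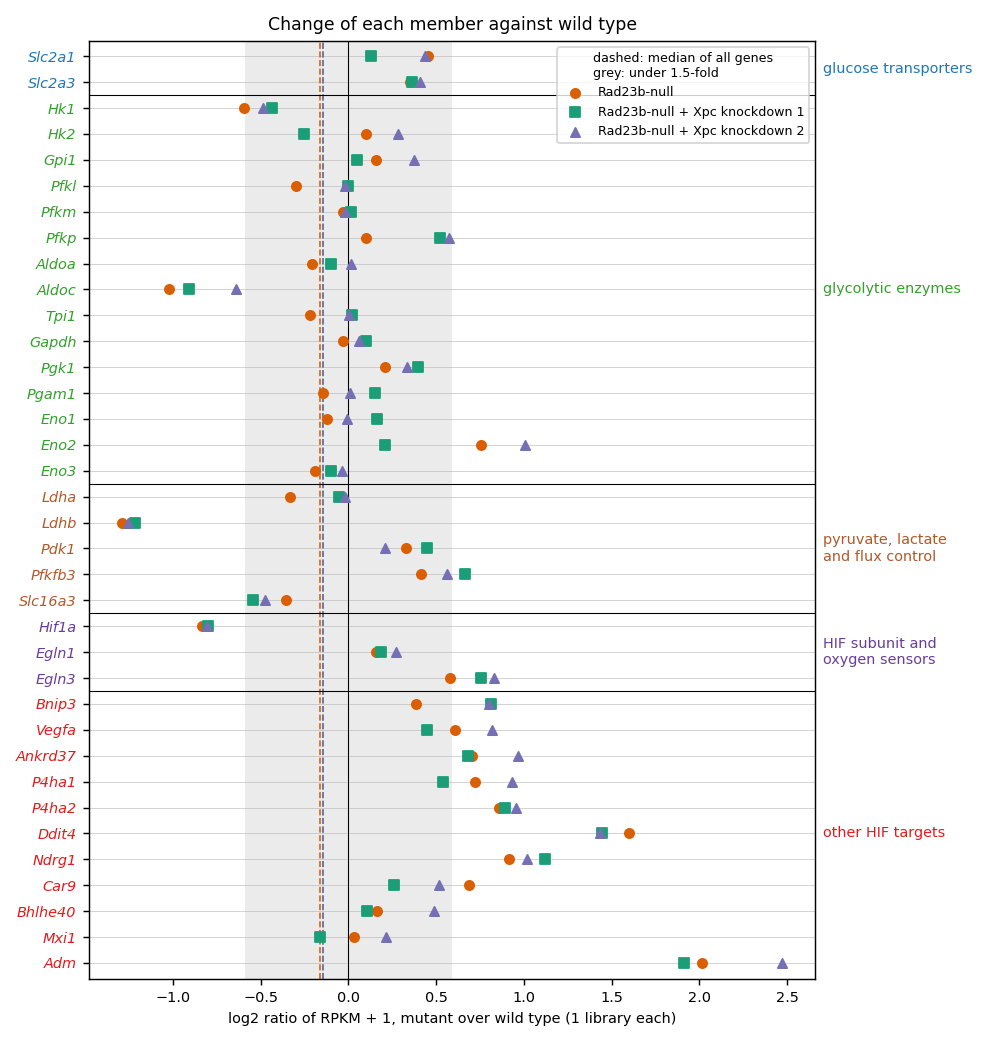
Each of the 36 genes (vertical axis, coloured by role) is placed at its log2 ratio of RPKM + 1 against wild type (horizontal axis) in the 3 mutant libraries, 1 library each; the grey band spans changes under 1.5-fold and the dashed lines are the medians of all genes (-0.16, -0.14 and -0.14). The other HIF targets lie mostly to the right of the band, Adm farthest at 2.02, 1.91 and 2.47, while most glycolytic enzymes lie inside it and Ldhb lies to the left at -1.29, -1.22 and -1.26.

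Among the regulators, the RNA of the HIF-1 alpha subunit was lower while that of one of its oxygen sensors was higher. Hif1a, which encodes the subunit, stood at 61.0 RPKM in wild-type cells and at 33.9, 33.7 and 33.8 RPKM in Rad23b-null, KD1 and KD2 cells. The mutants lay within a narrow range, at log2 ratios of -0.83, -0.80 and -0.81, all below wild type. The listed span of Hif1a is shared with the noncoding gene Gm15283, so its value may hold reads of both. Egln3, a HIF prolyl hydroxylase that is itself a known HIF target, went the other way: 58.0 RPKM in wild type against 87.3, 96.2 and 102 RPKM (log2 ratios 0.58, 0.76 and 0.83). Egln3 passed 1.5-fold in both knockdowns and was just short of it in Rad23b-null cells. Egln1, the prolyl hydroxylase that acts on HIF at normal oxygen, was at 45.0 RPKM in wild type and 50.0 to 53.5 RPKM in the mutants, under 1.5-fold in each.

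Adm, which encodes the vasodilator peptide adrenomedullin, had the largest log2 ratio of the 36 genes in each mutant. It stood at 13.1 RPKM in wild-type cells and at 55.9, 50.8 and 75.9 RPKM in Rad23b-null, KD1 and KD2 cells, which is 4.28, 3.99 and 5.90 times wild type. In the authors' deposited table the p-value of Adm is listed as 0 in all 3 comparisons. Ddit4, which encodes REDD1, an inhibitor of mTORC1 signalling induced by hypoxia and other stresses, came next at 106 RPKM in wild type and 323, 283 and 284 RPKM in the mutants. Its log2 ratios were 1.60, 1.44 and 1.43, and the p-values in the authors' deposited table are 0.001, 0.001 and 0.002. All mutant values of both genes lay above wild type. Between the knockdowns Adm differed by 0.56 on the log2 scale and Ddit4 by 0.01. Both have listed coordinates of their own.

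Other HIF targets moved by smaller factors. Ndrg1, a stress-responsive gene long used as a hypoxia marker, was at 35.98 RPKM in wild type and at 68.8, 77.2 and 72.7 RPKM in the mutants. Its listed span also holds the antisense gene Gm17035, which was listed at 12.4 RPKM in wild type and 23.9, 25.6 and 25.0 RPKM in the mutants; the sources do not say that strand was used in counting, so these transcripts cannot be told apart. P4ha1 and P4ha2 encode alternative alpha subunits of collagen prolyl 4-hydroxylase, which hydroxylates procollagen, and both were above wild type in each mutant. P4ha1 went from 44.7 RPKM to 74.4, 63.8 and 84.8 RPKM, and P4ha2 from 21.3 RPKM to 39.4, 39.4 and 41.5 RPKM. P4ha2 passed 1.5-fold in each mutant (log2 ratios 0.86, 0.89 and 0.95), and P4ha1 did in Rad23b-null and KD2 cells but not in KD1 (0.72, 0.93 and 0.54). In the authors' deposited table the p-value of P4ha1 is 0.046 in KD2.

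Vegfa, the growth factor that drives blood vessel formation, was at 34.3 RPKM in wild type and 52.8, 46.0 and 60.3 RPKM in Rad23b-null, KD1 and KD2 cells. It was past 1.5-fold in Rad23b-null (log2 ratio 0.61) and KD2 cells (0.82) and not in KD1 (0.45). Bnip3, a mitochondrial outer membrane protein that promotes the removal of mitochondria, had the highest wild-type level of the 11 at 269 RPKM and reached 352, 461 and 463 RPKM. In contrast with Vegfa it was past 1.5-fold in both knockdowns (0.81 and 0.80) and not in Rad23b-null cells (0.39). Ankrd37, an ankyrin repeat gene known as a HIF-1 target, went from 39.0 RPKM to 64.1, 61.6 and 75.8 RPKM, with a span it shares with Ufsp2 and Lrp2bp.

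The remaining HIF targets were near wild type or barely expressed. Bhlhe40, a transcriptional repressor, was at 93.8 RPKM in wild type and 98.5 to 129 RPKM in the mutants. Mxi1, an antagonist of MYC, was at 10.3 RPKM in wild type and 8.85 to 11.9 RPKM in the mutants, on both sides of wild type. Car9, the membrane carbonic anhydrase IX that is strongly induced by hypoxia in many tumours, was close to absent, at 0.344 RPKM in wild type and 1.17, 0.599 and 0.917 RPKM in the mutants. Over all 11 genes the summed level was 668 RPKM in wild type and 1148, 1191 and 1299 RPKM in Rad23b-null, KD1 and KD2 cells, which is 1.72, 1.83 and 1.98 times the wild-type sum of the same table. Their median log2 ratio lay 0.86, 0.89 and 1.09 above the median of all genes.

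**Figure D2:**
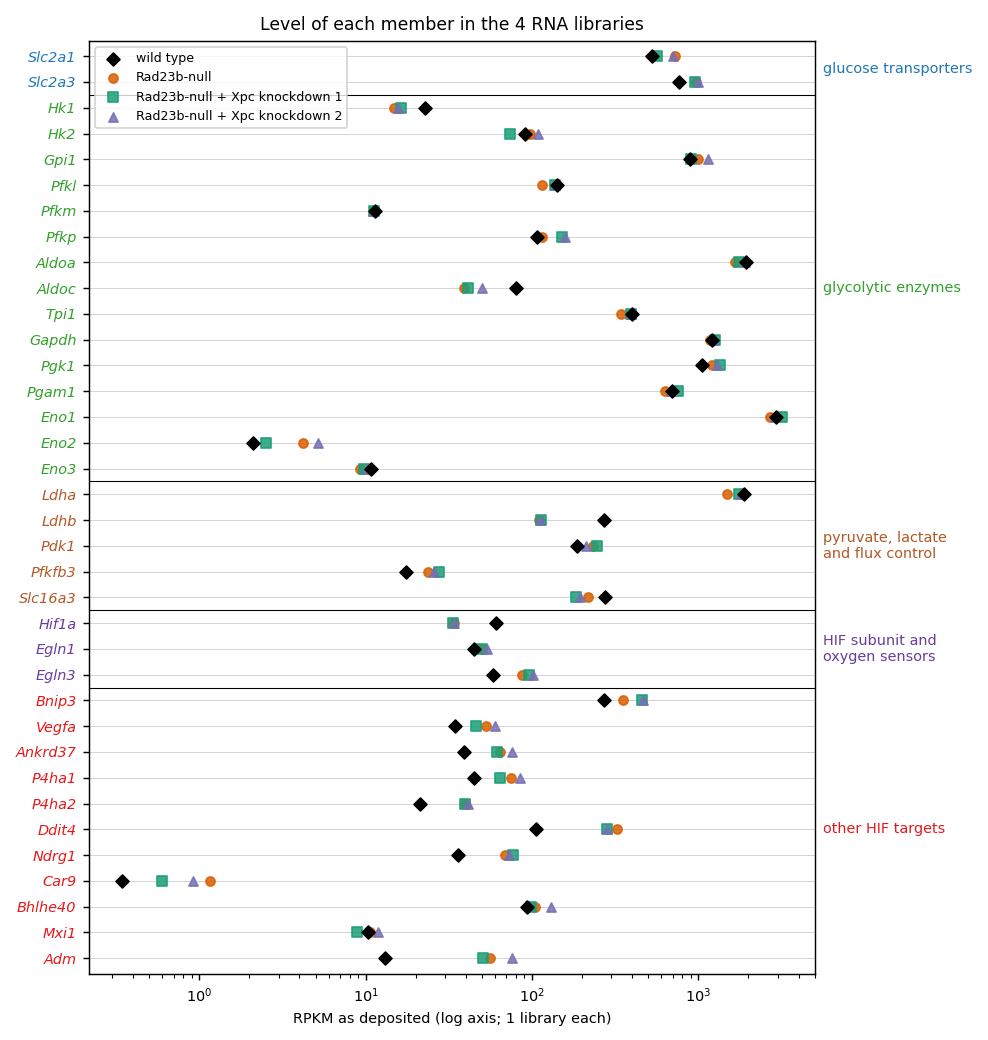
Levels of the 36 genes (vertical axis, coloured by role) in RPKM on a log axis in wild type (black diamonds) and the 3 mutant libraries, 1 library each. The levels run from Car9 at 0.344 RPKM to Eno1 at 2933 RPKM in wild type, and the wild-type diamond of Ldhb (271 RPKM) stands apart from the 3 mutants (111 to 113 RPKM).

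The promoters of 3 HIF targets show how differently such genes carry the core of the hypoxia response element. The 250 bases before the RefSeq start (assembly GRCm38.p6, written 5′ to 3′ on the strand of the gene) are given with every ACGTG or GCGTG in capitals. A copy on the opposite strand reads CACGT for the first motif and CACGC for the other, and is in capitals too. Adm and Ddit4 are shown because they had the largest log2 ratios, and Bnip3 because its window holds the motifs most densely of the 3. The windows lie at chr7:110627407-110627656 (plus strand) for Adm, chr10:59951771-59952020 (minus strand) for Ddit4 and chr7:138909507-138909756 (minus strand) for Bnip3.
Adm: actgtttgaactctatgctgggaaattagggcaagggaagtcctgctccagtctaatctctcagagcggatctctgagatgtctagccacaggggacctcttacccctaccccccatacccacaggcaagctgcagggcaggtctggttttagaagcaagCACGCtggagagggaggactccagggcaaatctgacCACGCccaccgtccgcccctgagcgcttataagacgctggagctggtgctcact
Ddit4: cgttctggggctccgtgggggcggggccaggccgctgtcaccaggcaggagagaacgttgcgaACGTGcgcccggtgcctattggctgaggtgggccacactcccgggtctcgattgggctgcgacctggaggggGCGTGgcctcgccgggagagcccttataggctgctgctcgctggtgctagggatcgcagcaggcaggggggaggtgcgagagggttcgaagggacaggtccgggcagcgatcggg
Bnip3: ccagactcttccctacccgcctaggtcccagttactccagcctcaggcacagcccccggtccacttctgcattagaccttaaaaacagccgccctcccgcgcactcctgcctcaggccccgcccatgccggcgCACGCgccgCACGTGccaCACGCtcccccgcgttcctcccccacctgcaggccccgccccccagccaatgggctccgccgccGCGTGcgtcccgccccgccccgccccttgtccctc
The window of Adm holds 2 copies of GCGTG and no ACGTG, that of Ddit4 holds 1 of each, and that of Bnip3 holds 3 of GCGTG and 2 of ACGTG, the latter overlapping on both strands in the palindrome CACGTG.

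The glucose transporters, which bring glucose into the cell, were among the most abundant of the 36 RNAs, and neither passed 1.5-fold. Slc2a1, which encodes GLUT1, was at 529 RPKM in wild type and 726, 564 and 704 RPKM in Rad23b-null, KD1 and KD2 cells (log2 ratios 0.46, 0.13 and 0.43). Slc2a3, which encodes the high-affinity transporter GLUT3, was at 761 RPKM in wild type and 970, 955 and 992 RPKM in the mutants (0.35, 0.36 and 0.41). Both were above wild type in each mutant library. The antisense gene Gm12868 on the span of Slc2a1 was listed at 111 RPKM in wild type and 129 to 157 RPKM in the mutants.

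The 15 glycolytic enzymes kept their summed level. It was 9556 RPKM in wild type and 9128, 10037 and 10023 RPKM in Rad23b-null, KD1 and KD2 cells, or 0.955, 1.08 and 1.07 times the wild-type sum of the same table. In Rad23b-null cells 12 of the 15 were within 1.5-fold, with Eno2 higher and Hk1 and Aldoc lower. In KD1 14 were within 1.5-fold and in KD2 13 were. The median over the 15 was -0.12, 0.02 and 0.01 on the log2 scale, which is 0.04, 0.16 and 0.15 above the median of all genes.

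The most abundant enzymes all stayed within 1.5-fold of wild type. Eno1, the main enolase, was at 2933 RPKM in wild type and 2700, 3199 and 2873 RPKM in the mutants. Aldoa, the main aldolase, was at 1923 RPKM and 1666, 1750 and 1908 RPKM. Gapdh, which carries out the oxidation step and often serves as a reference gene, was at 1204 RPKM in wild type and 1180, 1257 and 1235 RPKM in the mutants. None of the 3 differed from wild type by more than 0.22 on the log2 scale. Pgk1, the first ATP-forming enzyme of the pathway, was at 1050 RPKM in wild type and 1215, 1347 and 1299 RPKM in the mutants, all above wild type and under 1.5-fold. Gpi1, which makes fructose 6-phosphate, was at 890 RPKM and 993, 899 and 1136 RPKM. Pgam1 (phosphoglycerate mutase) and Tpi1 (triose phosphate isomerase) were at 693 and 397 RPKM in wild type, with 628 to 750 RPKM and 341 to 392 RPKM in the mutants. These last 2 genes lay on both sides of wild type or close to it. The span of Tpi1 is shared with Spsb2, so its value may hold reads of both.

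Where the enzymes did differ, it was among the alternative isoforms of a step. Aldoc, the aldolase typical of brain, was at 79.9 RPKM in wild type and 38.8, 41.0 and 50.0 RPKM in the mutants (log2 ratios -1.02, -0.91 and -0.64), and its share of the aldolase RNA went from 3.99% to 2.28, 2.29 and 2.55%. Hk1, the widely expressed hexokinase, was at 22.8 RPKM in wild type and 14.8, 16.2 and 15.7 RPKM in the mutants, past 1.5-fold in Rad23b-null cells alone and by a small margin (-0.60, against -0.43 and -0.49). Hk2, the hexokinase known as a HIF target, was at 90.2 RPKM in wild type and 96.9, 73.6 and 108 RPKM in the mutants, on both sides of wild type. Hk2 made up 79.8% of the hexokinase RNA of these 2 genes in wild type and 81.9 to 87.3% in the mutants. For phosphofructokinase, which commits sugar to glycolysis, the share of Pfkp was larger in each mutant, though neither Pfkp nor Pfkl passed 1.5-fold. Log2 ratios were 0.10, 0.52 and 0.57 for Pfkp and -0.30, -0.001 and -0.02 for Pfkl. The span of Pfkp is shared with Pitrm1, that of Pfkm with Senp1 and SNORA17, and that of Hk1 with 2210417K05Rik, so these values may hold reads of other genes. Pfkp was at 107 RPKM in wild type and 115, 151 and 157 RPKM in the mutants, and Pfkl at 141 RPKM and 114, 137 and 137 RPKM. Pfkp made up 41.3% of the phosphofructokinase RNA in wild type and 47.9, 50.4 and 51.5% in the mutants, without passing 1.5-fold in its own level, and Pfkm stayed at 11.0 to 11.4 RPKM. Eno2, the neuronal enolase, was low at 2.10 RPKM in wild type and 4.22, 2.53 and 5.15 RPKM in the mutants, and Eno3, the muscle enolase, was at 9.27 to 10.7 RPKM in all 4 libraries.

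**Figure D3:**
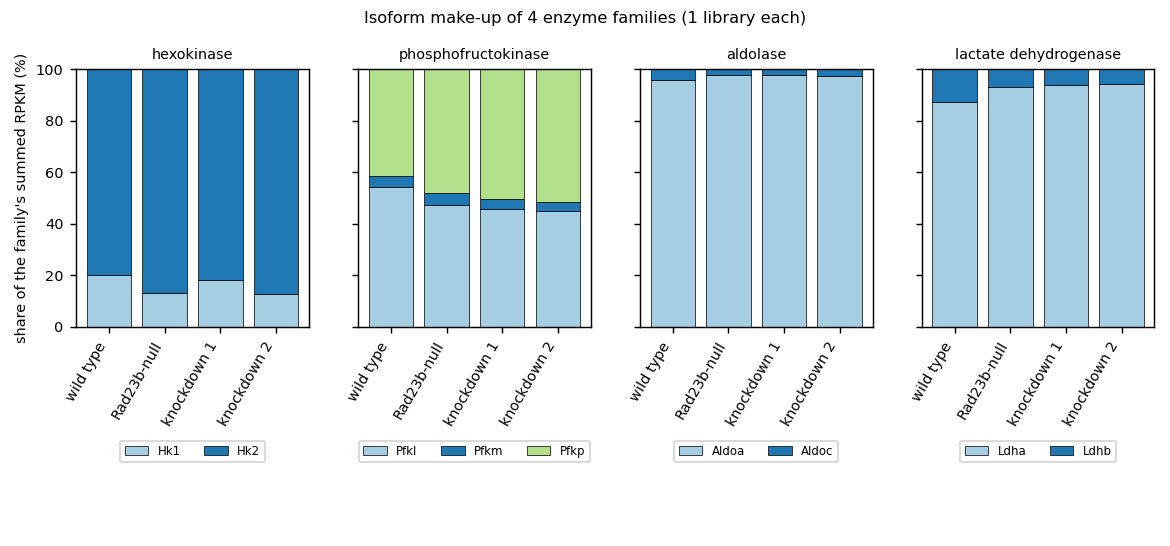
Stacked bars give the share (percent, vertical axis from 0) of each member gene in the summed RPKM of its enzyme family, in wild type and the 3 mutant libraries, 1 library each. Ldhb takes 12.7% of lactate dehydrogenase RNA in wild type and 5.77 to 6.93% in the mutants, and Pfkp takes 41.3% of phosphofructokinase RNA in wild type and 47.9 to 51.5% in the mutants.

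Beyond pyruvate, the 2 lactate dehydrogenase subunits parted. Ldhb encodes the heart-type subunit, which favours the oxidation of lactate to pyruvate, and Ldha the muscle-type subunit, which favours lactate formation and is a known HIF target. Ldhb had the lowest log2 ratio of the 36 genes in each mutant: 271 RPKM in wild type against 111, 113 and 111 RPKM, or 40.7, 42.8 and 41.7% of wild type. The mutants differed from each other by at most 0.07 on the log2 scale and lay far below wild type, and the p-values of Ldhb in the authors' deposited table are 0.019, 0.013 and 0.009. Ldha was at 1873 RPKM in wild type and 1484, 1757 and 1815 RPKM in the mutants (-0.34, -0.06 and -0.02), under 1.5-fold in each. Ldhb made up 12.7% of the RNA of the 2 genes in wild type and 6.93, 6.06 and 5.77% in the mutants.

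The promoters of this pair are set side by side because the genes encode subunits of 1 enzyme and moved differently. The windows are the 250 bases before the start, marked as above, at chr7:46845554-46845803 (plus strand; the upstream of 2 RefSeq starts) for Ldha and chr6:142507958-142508207 (minus strand) for Ldhb, both GRCm38.p6.
Ldha: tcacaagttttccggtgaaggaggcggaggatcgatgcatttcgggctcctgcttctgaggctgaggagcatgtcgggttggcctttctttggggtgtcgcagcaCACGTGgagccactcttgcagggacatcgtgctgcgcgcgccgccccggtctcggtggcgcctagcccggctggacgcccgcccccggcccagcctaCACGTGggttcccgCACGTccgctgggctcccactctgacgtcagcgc
Ldhb: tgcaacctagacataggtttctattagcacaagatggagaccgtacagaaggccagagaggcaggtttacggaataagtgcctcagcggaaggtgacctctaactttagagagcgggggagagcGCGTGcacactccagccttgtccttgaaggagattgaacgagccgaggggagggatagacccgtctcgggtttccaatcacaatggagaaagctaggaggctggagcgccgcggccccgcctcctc
Counted on both strands, the Ldha window holds 5 copies of ACGTG, with CACGTG at 2 places, and the Ldhb window holds a single GCGTG and no ACGTG. The window of the other Ldha start (chr7:46846832-46847081) holds 1 GCGTG and no ACGTG, as the Ldhb window does.

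Of the genes that set the fate of pyruvate, Pdk1 encodes a kinase that shuts off pyruvate dehydrogenase and is a known HIF target. It was at 185 RPKM in wild type and 233, 246 and 210 RPKM in the mutants, above wild type in each and under 1.5-fold. Pfkfb3, which makes the allosteric activator of phosphofructokinase, was at 17.4 RPKM in wild type and 23.6, 27.5 and 25.7 RPKM in the mutants, past 1.5-fold in KD1 (log2 ratio 0.67) but not in Rad23b-null (0.42) or KD2 cells (0.56). Slc16a3, which encodes the lactate exporter MCT4, was below wild type in each mutant, at 276 RPKM against 216, 185 and 195 RPKM, and did not pass 1.5-fold. Its listed span is shared with Csnk1d, so its value may hold reads of both.

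Between either knockdown and Rad23b-null cells, with 1 library each, none of the 36 genes differed by 1.5-fold. Few of all genes did, so these counts are near the shares of all genes and show nothing particular to the 36. In KD1 against Rad23b-null cells 0 were higher (3.63% of all genes) and 0 lower (3.84%), and in KD2 against Rad23b-null cells 0 were higher (2.92%) and 0 lower (3.41%). These are differences of the 2 log2 ratios against wild type, each from its own table. Eno2 in KD1 (-0.54), Pfkp in KD2 (0.47) and Adm in KD2 (0.46) came nearest to the limit. Bnip3 was above Rad23b-null cells by 0.43 and 0.42 in the 2 knockdowns, about as much as Pfkp (0.42 and 0.47). Between the knockdowns, Eno2 was the 1 gene past 1.5-fold, higher in KD2 by 0.80 (3.41% of all genes), with 0 genes lower (3.29%).

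Other genes of the same pathways were taken from lists of names. Of 35 further hypoxia genes 33 passed the filter, of which 9, 9 and 11 were at least 1.5-fold higher in Rad23b-null, KD1 and KD2 cells (beside 10.8, 9.1 and 9.61% of all genes) and 3, 2 and 2 lower (beside 16.4, 12.4 and 13.7%). The highest in Rad23b-null cells were Loxl2, a lysyl oxidase that crosslinks collagen, at 6.09 RPKM in wild type and 23.96, 22.2 and 25.3 RPKM in the mutants, then Vldlr, a lipoprotein receptor, at 3.46 and 11.5, 11.6 and 17.1 RPKM. The transferrin receptor gene Tfrc, for iron uptake, was at 125 RPKM in wild type and 348, 355 and 428 RPKM in the mutants. Among the lowest were the histone demethylase gene Kdm4b, at 27.9 RPKM in wild type and 15.7, 14.9 and 19.9 RPKM in the mutants, and the cytokine gene Mif, at 1017 RPKM and 613, 784 and 696 RPKM. The list's other HIF subunit genes stayed under 1.5-fold: Epas1, for HIF-2 alpha, was at 6.34 RPKM in wild type and 7.08 to 8.80 RPKM in the mutants, and Arnt, for the HIF beta subunit, at 37.8 RPKM and 25.5 to 31.9 RPKM. Both were picked from the list after their values were seen.

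Among 36 further genes of glycolysis, pyruvate use and glycogen, 26, 27 and 26 passed the filter in the 3 comparisons, of which 2, 4 and 5 were higher and 6, 4 and 6 lower. The shares of all genes are again 10.8, 9.1 and 9.61% higher and 16.4, 12.4 and 13.7% lower. The highest in Rad23b-null cells were Ldhd, a mitochondrial D-lactate dehydrogenase (0.54 RPKM in wild type, 1.99 RPKM in Rad23b-null cells), Gys1, the glycogen synthase of muscle and most other tissues (30.4 RPKM in wild type and 54.5, 49.1 and 77.2 RPKM in the mutants), and the glycogen phosphorylase gene Pygl (3.39 RPKM in wild type, 4.80 RPKM in Rad23b-null cells). Ldhd, counted as higher in each mutant, passed the RPKM limit only through the mutants. The lowest were Ldhc, the testis lactate dehydrogenase, at 2.22 RPKM in wild type and 0.58 to 0.87 RPKM in the mutants, Pdha1, a subunit of pyruvate dehydrogenase, at 156 RPKM and 94.0 to 110.1 RPKM, and the phosphoglucomutase gene Pgm1 at 26.7 RPKM and 15.6 to 16.4 RPKM. The pyruvate kinase gene, listed under its older symbol Pkm2, was at 1991 RPKM in wild type and 1538 to 1774 RPKM in the mutants, under 1.5-fold; it was picked after its value was seen, as the last enzyme of the pathway.

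The core motifs were then counted over all the promoters that could be matched. RefSeq windows were matched for 33 of the 36 genes (48 windows; none for Bhlhe40, Slc2a3 and Ndrg1), and a gene was counted when any of its windows held the motif on either strand in the 250 bases before the start. The 33 genes had more windows per gene (48 windows) than all genes did (32851 windows for 27025 genes), which by itself favours finding a match. The part of this was not tested. ACGTG was found in 20 of the 33, beside 18.5% of all genes with a window and 27.7% of those with a wild-type RPKM of at least 10. GCGTG was found in 22 of the 33, beside 30.9 and 54.5%, and the palindrome CACGTG, which contains ACGTG on both strands, in 5, beside 6.86 and 11.0%. ACGTG was not found in the windows of Adm, Aldoc, Eno1, Eno2, Eno3, Gapdh, Gpi1, Hk1, Ldhb, Pdk1, Pfkl, Pfkp or Tpi1. In Rad23b-null cells the 20 genes with ACGTG had a median log2 ratio of 0.30 and included 6 of the higher and 1 of the lower genes. The 13 without had a median of -0.12, with 2 higher and 3 lower. The medians with and without were 0.19 and 0.05 in KD1, and 0.33 and 0.002 in KD2. This split largely repeats that by role. The 6 higher genes with ACGTG were all other HIF targets, and all genes without it but Adm belong to glycolysis. Of these 6, Vegfa held ACGTG only in the window of its downstream start (chr17:46025164-46025413) and not in that of its upstream start. A link of motif and change was not tested, and no ratios over all genes stand beside these medians. Adm, with the largest log2 ratio, and Ldhb, with the lowest, both belonged to the genes without. The Hif1a window is shown as that of the regulator itself and lies at chr12:73907617-73907866 (plus strand, GRCm38.p6).
Hif1a: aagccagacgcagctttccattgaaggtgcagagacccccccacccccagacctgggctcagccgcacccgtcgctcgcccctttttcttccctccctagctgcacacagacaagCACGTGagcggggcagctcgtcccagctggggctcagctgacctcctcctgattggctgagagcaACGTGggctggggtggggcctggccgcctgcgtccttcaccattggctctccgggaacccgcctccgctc
It holds 3 copies of ACGTG counted on both strands, 2 of them in 1 CACGTG, and no GCGTG. The Pgk1 window, at chrX:106186850-106187099 (plus strand), is shown as that of a glycolytic enzyme that was above wild type in each mutant.
Pgk1: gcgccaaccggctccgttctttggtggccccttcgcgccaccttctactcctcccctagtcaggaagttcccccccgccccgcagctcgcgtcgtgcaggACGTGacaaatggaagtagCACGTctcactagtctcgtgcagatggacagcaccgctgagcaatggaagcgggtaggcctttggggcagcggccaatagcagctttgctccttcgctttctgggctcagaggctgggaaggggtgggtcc
It holds ACGTG once on each strand. A match is a run of letters and not a measured binding site of HIF.

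RAD23B regions lay near all 36 genes in wild-type D3 cells. A region shared by both replicates (overlap of at least 1 bp) was within 5 kb of the listed locus of 36 of 36 genes, beside 57.5% of all genes, 83.5% of genes with a wild-type RPKM of at least 1 and 86.5% of those with at least 10; 34 of the 36 genes have at least 10. The median locus was 26.5 kb long for the 36 genes and 25.4 kb for genes with an RPKM of at least 10. There were 120 such regions, between 1 and 9 a gene. Their median fold over IgG, as the authors give it, was 1.99 in replicate 1 and 2.14 in replicate 2, beside 1.95 and 2.13 over all 38822 shared regions. The folds at these genes were thus close to those of all regions.

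For the 21 genes that share their listed coordinates with no other gene, the start was taken from the listed locus and strand. Other starts inside the locus were not considered. A shared region lay within 1 kb of the listed start in 18, beside 31.4% of all such genes and 73.2% of those with an RPKM of at least 10. The 3 genes without were Ldha, Egln3 and Adm. At Adm, replicate 1 had a region over the start (chr7:117770577-117771370, fold 1.81), but replicate 2 had none there, and its shared region (chr7:117773616-117774353, folds 1.63 and 1.89) lay past the end of the gene. At Ldha the shared region nearest the listed start was upstream (chr7:54094854-54095316, centred at -1759 bp from it), with 117 RAD23B and 67 IgG reads in replicate 1 and folds of 1.66 and 1.75. Further shared regions lay inside the Ldha locus, centred 4333 bp (folds 1.71 and 1.75) and 5692 bp (1.71 and 1.54) past the listed start. The RefSeq starts of Ldha were not placed among these regions, so a region at its promoter may have been missed. At Ddit4 a replicate 1 region covered the start (chr10:59414256-59416228), with 656 RAD23B and 311 IgG reads and a fold of 2.01. The overlapping replicate 2 region of highest fold (chr10:59415718-59416192, fold 2.29) lay upstream of the start.

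The strongest region at any of the 36 genes was upstream of Ldhb. It lay at chr6:142459894-142460761 (mm9), centred at -3850 bp from the start, with 385 RAD23B against 87 IgG reads in replicate 1, 183 against 23 in replicate 2, and folds of 4.18 and 7.67. A weaker region covered the Ldhb start itself (chr6:142456176-142456920, folds 2.16 and 2.51). On the listed span of Slc2a3, which also holds Gm4482, the strongest region was chr6:122715996-122716967, with 540 and 123 reads in replicate 1 and folds of 4.16 and 4.12. A neighbouring region on the same span (chr6:122714236-122715723) had folds of 3.74 and 3.39. By the strongest region of each gene, the next were those on the spans of Pfkm (chr15:97907239-97907828, folds 3.52 and 3.88), Hk2 (chr6:82710659-82711262, 3.47 and 2.96), Bhlhe40 (chr6:108594283-108594755, 3.27 and 4.00) and Hk1 (chr10:61750166-61750669, 3.02 and 2.55). These 4 spans are all shared with other genes, so the regions may not belong to the genes named.

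Some regions lay at the starts of genes. The one at the listed start of Slc2a1 (chr4:118780920-118782046) had folds of 2.16 and 2.01. Pgk1 had a single region, over its start (chrX:103381959-103382457, folds 2.71 and 3.39), and so had Bnip3 (chr7:146100862-146101859, 2.08 and 2.19). The region at the Vegfa start (chr17:46169099-46170057) had folds of 1.88 and 1.61. All 4 were listed in both replicates, though the replicate 2 regions at Vegfa and Pgk1 stopped short of the listed start. The shared region nearest the listed start of Hif1a (chr12:75008482-75009244, folds 1.82 and 1.94) was centred 6502 bp into the span. That span is shared with Gm15283, so its listed start need not be that of Hif1a, and the distance to the Hif1a promoter is not known.

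The strongest shared region of each gene was set beside its change in Rad23b-null cells. Of the 6 genes with the highest strongest region by replicate 1 fold, all but Ldhb lie on listed spans shared with other genes. The folds were compared among the members only. No values over all genes stand beside them, and a link of fold and change was not tested. The fold of the strongest shared region had a median of 1.75 in replicate 1 over the 9 higher genes (1.60 to 2.88), 2.63 over the 4 lower genes (1.75 to 4.18) and 2.35 over the other 23 (1.68 to 4.16). In replicate 2 the medians were 2.29, 2.61 and 2.53, which lie closer together. The higher genes had a median of 2 shared regions and a median locus of 15.4 kb, the lower 4 regions and 33.1 kb, and the others 3 regions and 28.2 kb; the part of locus length was not tested. In KD1 the replicate 1 medians were 1.73, 2.24 and 2.42 for higher, lower and other genes, with median loci of 27.8, 17.7 and 29.1 kb, and in KD2 they were 2.03, 2.24 and 2.42, with 21.8, 17.7 and 30.4 kb. Adm, with the highest log2 ratio in Rad23b-null cells, had a strongest fold of 1.63, with P4ha2 and Ankrd37 (both 1.60) below it, and Ldhb, with the lowest ratio, had 4.18.

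**Figure D4:**
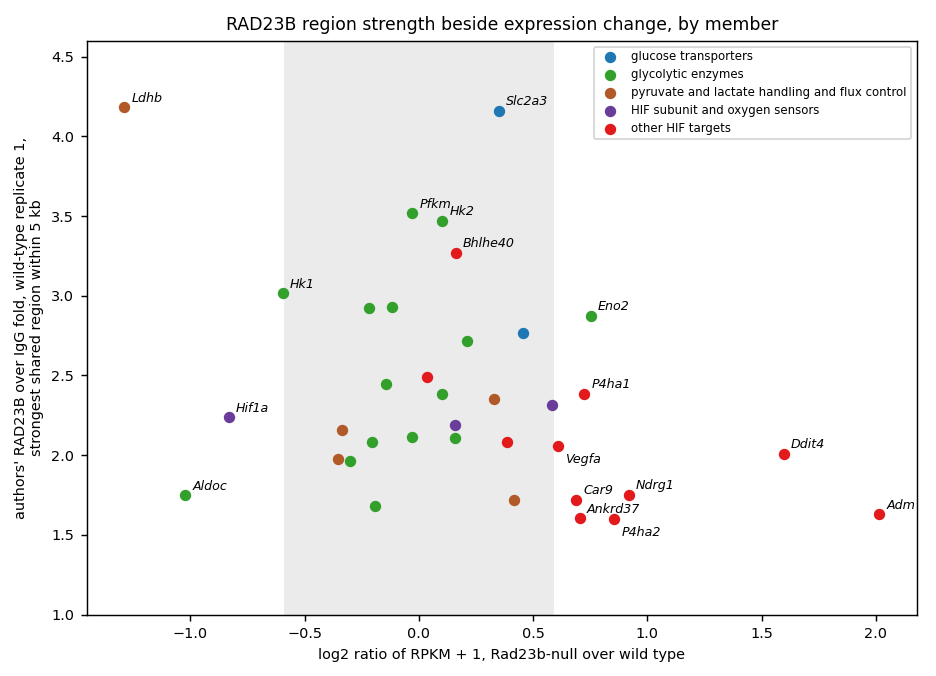
For each of the 36 genes, coloured by role, the authors' RAD23B over IgG fold of the strongest shared region within 5 kb in wild-type replicate 1 (vertical axis) is plotted against the log2 ratio of RPKM + 1 in Rad23b-null over wild-type cells (horizontal axis); the grey band spans changes under 1.5-fold. Ldhb lies at the upper left (-1.29, fold 4.18) and Adm and Ddit4 at the lower right (2.02 and 1.60, folds 1.63 and 2.01).

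In Xpc-/- cells a region was listed within 5 kb of 3 of the 36 genes, beside 3.49% of all genes and 6.34% of those with an RPKM of at least 10. They were at Gapdh (chr6:125111578-125111850, 39 reads headed RAD23B and 91 headed IgG), Eno2 (chr6:124709406-124709686, 33 and 100) and Ankrd37 (chr8:47060410-47060695, 49 and 96). Each overlapped a shared region of wild-type cells. In all 828 regions of that list the column headed IgG holds more reads than the one headed RAD23B. The authors' fold, headed RAD23B against IgG, is nevertheless 1.89, 2.44 and 1.59 at these 3. It is largest at Eno2, where the column headed IgG exceeds the other most. The headings of the reads and of the fold thus conflict. The values do not settle which of them is exchanged, so these regions cannot be read as RAD23B occupancy.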

How the data were processed

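RNA was measured in 4 libraries and RAD23B or IgG immunoprecipitates in 6. The authors deposited RPKM in 3 tables, from single-end reads of 50 bp. The submitters' processing notes name mm9, TopHat2 2.0.6, Cuffdiff and Cufflinks 2.0.2. Tables were scaled separately. An RPKM of exactly 1 was read as 0, since 13841 wild-type values are exactly 1 and others lie far below. The authors' deposited p-values rest on no replicates. Of 36658 lines, 72 carry no gene name and were dropped; they hold 0.00144% of the RPKM in wild type. Of the 36 genes, 21 have listed coordinates of their own and 15 share theirs with other genes; the sources do not say how reads on shared spans were divided.

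RAD23B regions are the authors', 1 list per RAD23B library with deposited read counts and a scaled fold, the ratio of the libraries, per the file headers. Partek is in the submitters' processing notes; the aligner and calling settings were not given in the sources used here. The lists hold 59768 and 42364 wild-type regions. Headings in the replicate 2 list name replicate 1 libraries. Nothing says that the replicates came from separate cultures.

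Ratios, counts and overlaps were computed in Python 3.11.15 with numpy 2.4.6 and pandas 2.3.3 (figures: matplotlib 3.10.9) and checked on simulated data. Wild-type RPKM printed are those of the Rad23b-null table; these are 1.03 and 1.02 times those of the KD1 and KD2 tables. The genes and lists were chosen with earlier results of these data known. All 36 genes are named by role; regions named are the strongest of the 6 genes whose strongest region ranked highest by replicate 1 fold, those nearest the start of 6 genes and all Xpc-/- regions, with Adm, Ddit4, the Ldhb start and a further Slc2a3 region added after their values were seen, and of other lists the 3 highest and 3 lowest in Rad23b-null cells, of which 1 gene is not reported here. Promoters are from RefSeq on GRCm38.p6, which was not used for mm9 coordinates. Alternatives were another pseudocount, filter, fold, centring, own coordinates only, distance, overlap and fold of regions, and 1 replicate alone.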

Additional observations from a re-analysis of the deposited data

How the results depend on the processing

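Of 70 values of counts and medians recomputed under the alternatives, 62 stayed close to the value reported, 8 moved and 0 changed direction. With a fold of 2 in place of 1.5, the members counted were 2 higher and 2 lower in Rad23b-null cells, 3 and 1 in KD1, and 4 and 1 in KD2. With genes on coordinates of their own only, the lower members in Rad23b-null cells were 2, since fewer genes were counted. With an authors' fold of at least 2 in both replicates, 11 of 21 members had a region within 1 kb of the start (beside 18.5% of all own-coordinate genes at 10 RPKM or more in wild type) and 25 of 36 one within 5 kb (beside 44.6% of all genes at that level). With either RAD23B replicate alone these counts ranged from 18 to 19 and from 36 to 36. For single genes 211 of 216 log2 ratios stayed within 0.22; the 5 others, of Eno2 and Car9, moved with a pseudocount of 0.1, Car9 to 1.51 in Rad23b-null cells. No paired analysis was possible because replicate numbers are shared only by the RAD23B and IgG libraries, which enter no test, and each RNA group has 1 library. Depth limits the low genes: Car9 and Eno2 stand at low RPKM, and read totals are unknown.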

Other observations

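Processed copies of 2 glycolytic genes are listed beside their parents with similar log2 ratios. Pgk1-rs7 was at 207 RPKM in wild type and 238, 264 and 252 RPKM in Rad23b-null, KD1 and KD2 cells (log2 ratios 0.20, 0.39 and 0.30), next to 0.21, 0.40 and 0.33 for Pgk1. Pgam1-ps2 was at 270 RPKM in wild type and 239, 276 and 254 RPKM in the mutants, next to 693 RPKM and 628, 750 and 686 RPKM for Pgam1. Reads of 50 bp can be shared between such copies, and how the authors' counting divided them is not given in the sources used here, so the levels of Pgk1 and Pgam1 are uncertain to that extent. The copies of Ldha were listed at 0.22 RPKM (Ldha-ps) and 5.14 RPKM (Ldha-ps2) in wild type, far under the 1873 RPKM of Ldha.

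Among the further hypoxia genes, those that modify collagen, as P4ha1 and P4ha2 do, and those of glycogen were picked after their values were seen. Plod2, a lysyl hydroxylase of collagen, was at 43.0 RPKM in wild type and 104, 108 and 116 RPKM in the mutants (log2 ratios 1.26, 1.34 and 1.44), and Loxl2 had ratios of 1.82, 1.74 and 1.91. Plod1 was at 18.0 RPKM in wild type and 15.1 to 22.6 RPKM in the mutants, and Lox was under 1 RPKM in every library. Of the glycogen genes, Ppp1r3c, a targeting subunit that promotes glycogen synthesis, was at 2.08 RPKM in wild type and 5.95, 5.80 and 7.26 RPKM in the mutants, in the same direction as Gys1.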
